A study of Mus musculus with 16 samples.

Results

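Mural cells are the pericytes and smooth muscle cells that wrap blood vessels, and 9 of their genes were followed across all libraries of the study: Pdgfrb, Rgs5, Acta2, Tagln, Cspg4, Myh11, Des, Notch3 and Cnn1. They were chosen by name, as 9 of the 22609 gene entries listed for each library, as known mural cell genes, and not by a rule on their measured values, although earlier results of these data were known. All 9 were found in all 16 libraries under these symbols, and all 9 passed the filter on low counts, which left 14200 genes for testing.

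Pericytes sit on capillaries, where platelet-derived growth factor from the endothelium acts on their receptor Pdgfrb and Notch ligands act on Notch3. Smooth muscle cells surround arterioles and arteries and hold a contractile apparatus of smooth muscle actin (Acta2), smooth muscle myosin (Myh11) and the actin-binding proteins transgelin (Tagln) and calponin 1 (Cnn1). Many genes of that apparatus are switched on by serum response factor, which binds a short DNA element called the CArG box. In a dorsal root ganglion, which houses the cell bodies of sensory neurons, mural cells belong to the vessels that supply the neurons and their glia.

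By the labels, the cells were WGA-488-positive neurons, labelled from the paw by a fluorescent lectin. They were sorted by flow cytometry from L3 to L5 ganglia of male mice aged 8 to 16 weeks, and their RNA was sequenced. Mice with 2 kinds of genotype label were used. LTbR-fl/fl animals carried floxed alleles of the lymphotoxin-beta receptor gene, and Nav1.8/LTbR CKO animals carried the same floxed alleles plus a Cre recombinase driven from Nav1.8, the sodium channel of nociceptors, so a deletion would be limited to cells with a history of Nav1.8 expression. PTX is paclitaxel, a microtubule-stabilising chemotherapy drug, given intraperitoneally in 3 injections of 6 mg/kg at intervals of 2 days, with the tracer at 16 days and the ganglia taken at 18 days after the last injection. The 4 groups were PTX fl/fl, PTX CKO, vehicle fl/fl and vehicle CKO, with 4 libraries each, although the design text states 3 mice per group. The vehicle libraries bear the treatment label water, while the protocol attached to them describes PTX, and the label was followed. The labels do not say whether replicate libraries are separate animals, so the p-values reflect variation among libraries that could be technical.

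Each library held between 7906504 and 11668007 gene counts. The unit of level is CPM, in which counts are scaled by the TMM-adjusted library size. Ltbr, the target of the Cre, gave no lower level under the CKO label: it ranged from 5.88 to 28.4 CPM against 6.06 to 15.6 CPM under PTX, and from 32.3 to 99 CPM against 42.4 to 51.4 CPM under vehicle. It therefore did not check the genotype labels, and CKO below means the libraries labelled so. Titles carry 2 dates for PTX and 2 later dates for vehicle, with replicates 1 and 2 of each group on the earlier date and replicates 3 and 4 on the later one. What the dates mark is not stated, and date and treatment cannot be told apart. The 4 PTX libraries of the earlier date stood apart from the other 12 libraries. Their neutrophil markers summed to 259 to 9592 CPM, against 47752 to 112852 CPM on the later PTX date and 68478 to 222924 CPM over both vehicle dates, so the counts and medians of the PTX comparisons are also given without them.

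Mural genes made up a small part of the RNA in every library. Their 9 counts together took 0.0319% ± 0.0266 (SD, n = 4) of the gene counts in PTX fl/fl, 0.0444% ± 0.0432 in PTX CKO, 0.0910% ± 0.0524 in vehicle fl/fl and 0.0904% ± 0.0417 in vehicle CKO. In the PTX libraries of the earlier date the summed level was 146 and 236 CPM in fl/fl and 92.3 and 70.8 CPM in CKO. On the later PTX date it was 165 and 668 CPM in fl/fl and 617 and 918 CPM in CKO. Vehicle libraries held 427, 645, 1263 and 1259 CPM in fl/fl and 1408, 804, 1005 and 585 CPM in CKO. Of the 4 later PTX libraries, 3 thus lay within the vehicle range, while the fourth and all 4 earlier ones lay below it. In such pooled RNA, fewer mural cells, less of these RNAs per mural cell and more RNA from other cells cannot be told apart. Expression of these genes in other cells was not tested.

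To set the genes against each other, CPM were divided by the length of the annotated exons (CPM per kb, from a GENCODE annotation of GRCm38, not the build of the files). In vehicle fl/fl, Acta2 came first at 182 ± 109.6 CPM per kb (SD, n = 4), followed by Tagln at 100.1 ± 77.3 and Rgs5 at 33.8 ± 18.3. Pdgfrb (9.34 ± 3.57), Myh11 (9.10 ± 5.73), Des (6.06 ± 4.52), Cspg4 (5.54 ± 1.40), Notch3 (4.58 ± 2.32) and Cnn1 (1.48 ± 1.08 CPM per kb) were lower. Each neighbouring pair in this order had overlapping ranges. Acta2, Tagln and Rgs5 were the first 3 in all 4 groups, and Tagln and Rgs5 did not overlap in vehicle CKO (53.4 to 172 against 12.5 to 45.4 CPM per kb). Below them the order changed from group to group. Pdgfrb, for example, was the fourth in vehicle fl/fl and the eighth in vehicle CKO.

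**Figure D1:**
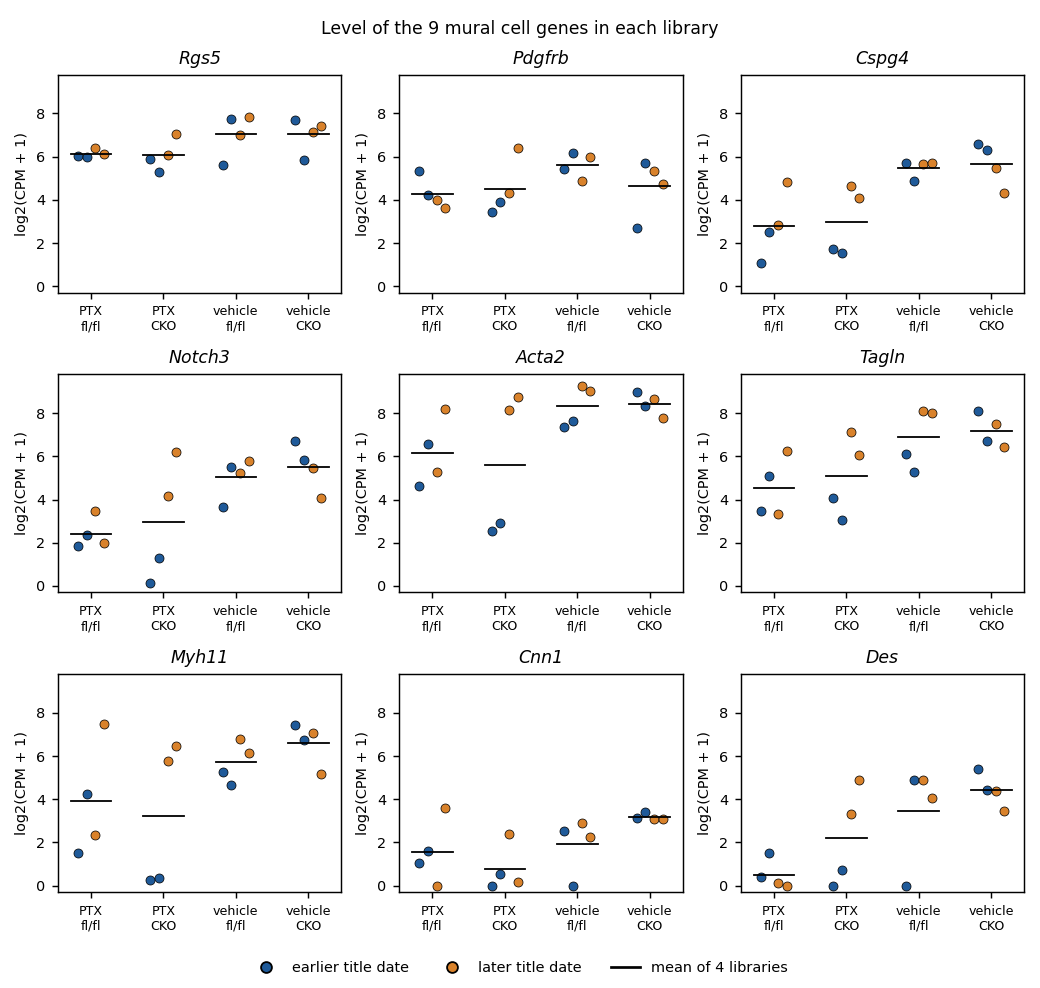
Level of each of the 9 mural cell genes as log2(CPM + 1) (vertical axis) in the 16 libraries by group (horizontal axis), with 1 point per library, colour for the title date and a line at the mean of 4 libraries. The blue points of PTX CKO are at or near the bottom for Acta2 (4.92 and 6.64 CPM) and Myh11 (0.197 and 0.285 CPM), while the orange points of the same group reach vehicle levels; Rgs5 varies least among the PTX libraries.

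Against vehicle, all 9 mural genes were lower on average after PTX in fl/fl mice, with a median log2 fold change of -1.72, but none passed the test across all genes. The log2 fold changes ran from -4.97 for Des to -0.07 for Cnn1. Of the 14200 genes tested, 4.96% were called in either direction (edgeR quasi-likelihood test, adjusted p under 0.05) and 1.76% were called lower, so 0 calls among 9 genes is close to what these shares give. An unadjusted edgeR p under 0.05 was found for 5 of the 9 and for 19.5% of all genes, and the smallest adjusted p was 0.139. A negative fold change was found for 50.2% of all genes, whose median was -0.01. DESeq2 called 3 members lower (Des, Notch3 and Tagln), against 4.76% of all genes, and limma-voom with quality weights called 7 lower, against 18.4%.

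The genes of pericyte identity are described first. Cspg4 encodes the NG2 proteoglycan of the pericyte surface. It was at 1.08, 4.75, 6.23 and 27.1 CPM in PTX fl/fl and at 51.3, 28.1, 48.9 and 51.7 CPM in vehicle fl/fl. Every PTX library was below every vehicle library, the nearest pair being 27.1 and 28.1 CPM. The log2 fold change was -2.20 ± 0.90 (SE), with an edgeR adjusted p of 0.183. Without PTX fl/fl replicate 4 it was -3.48 with an edgeR adjusted p of 0.04, in a fit that called 845 of 14585 genes. That was the highest PTX library, so leaving it out moves the value down by construction and is no support for a difference. Over all 8 left-out libraries the log2 fold change ran from -3.48 to -1.82.

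Notch3, a receptor that maintains vascular smooth muscle, was at 2.66, 4.13, 10.0 and 2.95 CPM in PTX fl/fl and at 11.4, 44.5, 36.2 and 54.9 CPM in vehicle fl/fl. These groups did not overlap either. Its log2 fold change was -2.89 ± 1.17, with an edgeR adjusted p of 0.176. Cspg4 and Notch3 were the only 2 of the 9 whose groups were separate in this comparison, against 7.8% of all genes that were lower without overlap.

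Pdgfrb, the receptor by which endothelial PDGF-B recruits pericytes, was at 39.4, 17.6, 14.7 and 11.2 CPM in PTX fl/fl and at 42.3, 71.7, 28.3 and 62.4 CPM in vehicle fl/fl. A single PTX library, replicate 1, reached into the vehicle range. The log2 fold change was -1.30 ± 0.72 (edgeR adjusted p = 0.341). Rgs5, a regulator of G protein signalling and a widely used pericyte marker, was at 64.9, 61.3, 82.8 and 67.7 CPM in PTX fl/fl and at 48.0, 213, 128 and 226 CPM in vehicle fl/fl. It varied least of the 9 among the PTX libraries, with a 3.5-fold range over all 8 of them, and vehicle replicate 1 lay below all 4 PTX values. Its log2 fold change was -1.15 ± 0.48 (edgeR adjusted p = 0.187).

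Among the contractile genes, Acta2 was at 24.1, 92.6, 37.8 and 294 CPM in PTX fl/fl and at 163, 196, 603 and 517 CPM in vehicle fl/fl. PTX replicate 4 lay above the lower 2 vehicle libraries, and the other 3 lay below all 4. Tagln was at 10.2, 33.6, 8.99 and 74.9 CPM against 69.0, 37.9, 274 and 257 CPM, again with replicate 4 as the only PTX library within the vehicle range. The log2 fold changes were -1.72 ± 1.11 for Acta2 (edgeR adjusted p = 0.436) and -2.32 ± 0.91 for Tagln (edgeR adjusted p = 0.166). In the GENCODE transcripts, 48.3% of the 50-base windows of Tagln also occur, on the opposite strand, in Pcsk7 or Gm48529. The kit marked strand per the labels, but the strand setting of the counting is not given in the sources used here, so Tagln counts are uncertain to that extent.

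Myh11 was at 1.83, 18.1, 4.09 and 179 CPM in PTX fl/fl and at 36.8, 24.5, 109 and 70.3 CPM in vehicle fl/fl. The first 3 PTX libraries were below all vehicle libraries and replicate 4 was above all of them. The log2 fold change was -0.25 ± 1.43 (edgeR adjusted p = 0.955). Without replicate 4 it was -2.90, again a move down by construction and no support for a difference. Over all 8 left-out libraries it ran from -2.90 to 0.21. Cnn1 was at 1.08, 2.02, 0 and 11.2 CPM against 4.81, 0, 6.42 and 3.74 CPM, a log2 fold change of -0.07 ± 1.68 (edgeR adjusted p = 0.989). A count of 0 allows up to 0.306 CPM in PTX replicate 3 and 0.351 CPM in vehicle replicate 2, by counting error alone.

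Desmin (Des), the intermediate filament of muscle cells and many pericytes, was at 0.332, 1.85, 0.102 and 0 CPM in PTX fl/fl, 26 reads in all 4 libraries. Vehicle fl/fl gave 0, 28.6, 29.1 and 15.8 CPM. The last 3 vehicle libraries were far above every PTX library, and vehicle replicate 1, with 0 reads and an upper limit of 0.328 CPM, was not. The log2 fold change was -4.97 ± 1.83, with an edgeR adjusted p of 0.139, the smallest of the 9.

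In CKO mice, 8 of the 9 mural genes were lower after PTX, with a median log2 fold change of -1.28, and again none was called by edgeR. The shares of all genes were 2.58% called and 0.359% called lower, and 49.4% had a negative fold change. Among the members, only Cspg4 had an unadjusted p under 0.05, against 19.7% of all genes, and its adjusted p of 0.155 was the smallest. DESeq2 called Cspg4 lower, against 3.13% of all genes, and limma-voom called 6 members lower, against 10.1%.

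Within PTX CKO the libraries lay far apart by title date. Acta2 was at 4.92, 6.64, 285 and 431 CPM in PTX CKO and at 503, 322, 398 and 219 CPM in vehicle CKO. Both earlier PTX libraries were far below vehicle and both later ones were inside its range. Myh11 followed the same order, at 0.197, 0.285, 53.5 and 88.7 CPM against 172, 107, 131 and 34.9 CPM, the first 2 values standing for 2 and 3 reads.

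Notch3 was at 0.0985, 1.42, 16.9 and 71.5 CPM in PTX CKO and at 103, 56.6, 42.7 and 15.7 CPM in vehicle CKO, and only the earlier pair lay below vehicle. Tagln was at 15.9, 7.31, 140.5 and 66.8 CPM against 275, 104, 181 and 85.2 CPM. Cspg4 was at 2.26, 1.90, 23.7 and 15.9 CPM against 94.7, 77.0, 43.1 and 19.0 CPM. For these 2 genes a later PTX library also crossed into the vehicle range. Des was at 0, 0.664, 8.87 and 28.3 CPM against 40.8, 20.3, 19.8 and 9.90 CPM, its 0 allowing up to 0.295 CPM.

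The other 3 genes gave a less divided picture in CKO mice. Rgs5 was at 58.9, 38.0, 65.6 and 133 CPM after PTX and at 206, 56.9, 142 and 169 CPM after vehicle, a log2 fold change of -0.96 ± 0.48 (edgeR adjusted p = 0.277). Pdgfrb was at 10.0, 14.1, 18.7 and 82.8 CPM against 5.50, 50.9, 39.8 and 25.6 CPM, a log2 fold change of 0.04 ± 0.71 (edgeR adjusted p = 0.983). Without PTX replicate 4, the highest PTX library, the Pdgfrb value was -1.09, a move down by construction and no support for a difference. Over all 8 left-out libraries it ran from -1.09 to 0.37. Cnn1 was at 0, 0.475, 4.23 and 0.119 CPM against 7.86, 9.52, 7.41 and 7.50 CPM. It was the only member separate between the groups, against 4.54% of all genes, and its log2 fold change was -2.73 ± 1.8 (edgeR adjusted p = 0.429).

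**Figure D2:**
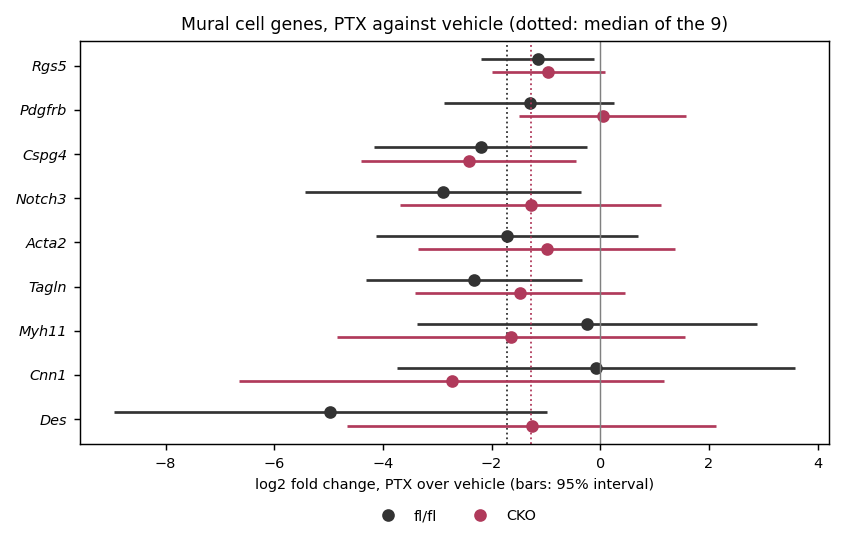
Log2 fold change of PTX over vehicle (horizontal axis) for each mural gene (vertical axis) in fl/fl and CKO mice, with 95% intervals from edgeR and dotted lines at the median of the 9 (-1.72 in fl/fl, -1.28 in CKO). All 9 points in fl/fl and 8 in CKO lie left of 0. The intervals of Cspg4, Des, Notch3, Rgs5 and Tagln in fl/fl and of Cspg4 in CKO exclude 0, and the others include it. These intervals are not adjusted for the number of genes tested.

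The median PTX difference depended on the title dates used in CKO and moved little in fl/fl. With the earlier dates alone, 2 libraries against 2, the CKO median was -5.36 and edgeR called 5 members lower, against 6.89% of all genes: Acta2, Tagln, Cspg4, Myh11 and Notch3, of which Acta2 had a log2 fold change of -6.15 (adjusted p = 0.00362). With the later dates alone the CKO median was -0.24 and edgeR called no member and 0% of all genes. In fl/fl the median was -1.62 on the earlier dates, with 1 call (Cspg4, lower) against 8% of all genes. It was -1.83 on the later dates, with 0 calls against 0.0279%. When only the 4 PTX libraries of the earlier date were left out, edgeR called no member in either genotype, with 3 members in fl/fl and 0 in CKO at an unadjusted p under 0.05, against 8.98% and 8.24% of all genes. The calls over all genes were then 4 (0.0272%) and 0. The medians were -1.48 and -0.55. In fl/fl, Myh11 and Cnn1 turned positive, at 0.55 and 0.52, and the other 7 ran from -8.19 for Des to -1.06 for Rgs5. In CKO, Pdgfrb was at 0.72 and the other 8 ran from -1.89 for Cnn1 to -0.02 for Acta2.

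The genotype labels were compared next, within each treatment. No member differed between CKO and fl/fl libraries under PTX, where 0% of all genes were called by edgeR (266 genes had an unadjusted p under 0.05, and DESeq2 called 10), or under vehicle, where 0.0211% were. Under PTX, 1 member had an unadjusted p under 0.05, Des, with a log2 fold change of 4.01 ± 1.75, a 95% interval from 0.19 to 7.83 and an adjusted p of 1. Under vehicle none did. Cnn1 was higher in all 4 vehicle CKO libraries (7.41 to 9.52 CPM) than in all 4 vehicle fl/fl libraries (0 to 6.42 CPM), against 0.81% of all genes, with a log2 fold change of 1.11 ± 1.70 and an edgeR adjusted p of 1. The PTX effect itself did not differ by genotype label for any member in the interaction test, which called 0.00704% of all genes. The widest of these intervals ran from -7.94 to 2.62 for Cnn1 and the narrowest from -1.26 to 1.64 for Rgs5, so the intervals left room for large differences in most members. In these 3 comparisons DESeq2 called no member and 10, 83 and 50 of all genes, and limma-voom called no gene.

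Between the title dates within PTX, all 9 mural genes were higher on the later date, with a median log2 fold change of 2.46 against -0.15 for all genes. The edgeR test called 3 of them, and 7.4% of all genes. They were Cspg4 (2.88 ± 0.64, adjusted p = 0.0105), Myh11 (5.19 ± 1.33, adjusted p = 0.0249) and Acta2 (3.69 ± 1.02, adjusted p = 0.0385). Cspg4 and Rgs5 were higher in all 4 later than in all 4 earlier libraries, against 9.75% of all genes. For Cspg4 the values were 1.08 to 4.75 CPM on the earlier date and 6.23 to 27.1 CPM on the later one, and for Rgs5 38.0 to 64.9 CPM and 65.6 to 133 CPM.

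These calls rested on few libraries. Leaving out PTX fl/fl replicate 4 or PTX CKO replicate 2 left no call, leaving out PTX fl/fl replicate 1 or PTX CKO replicate 1 left 1, and a fit of the PTX libraries alone left none. The calls over all genes were 639 to 929 on leaving out a library and 1409 with PTX libraries alone, against 1051. The fold changes of the 3 called genes stayed positive throughout. Neutrophil markers (9 of 9 tested) and macrophage markers (6 of 10) rose on the same date, and sensory neuron markers fell (3 of 12). Their part in the mural difference was not tested.

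Split by genotype label, the date values were higher in CKO for all 9 genes. A fit with each group and date as its own pair of libraries, chosen after the data had been seen, gave 3 calls in PTX CKO, where 5.36% of all genes were called: Acta2 with a log2 fold change of 5.95 ± 0.93 (edgeR adjusted p = 0.00117), Myh11 with 8.13 ± 1.75 (0.0129) and Notch3 with 5.83 ± 1.31 (0.017). In PTX fl/fl it gave 0 calls, with 2 members and 12% of all genes at an unadjusted edgeR p under 0.05, where 3.4% of all genes were called, and a median of 0.94 against 3.24 in CKO. The test of the difference between the genotype labels called none of the 9 and 0.507% of all genes, with 5 members and 4.01% of all genes at an unadjusted edgeR p under 0.05. Acta2 came nearest, at 4.44 ± 1.11 with an adjusted p of 0.176. Within vehicle, no member and 0.0493% of all genes were called between the dates, and the members' log2 fold changes ran from -0.56 for Cspg4 to 0.90 for Tagln.

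**Figure D3:**
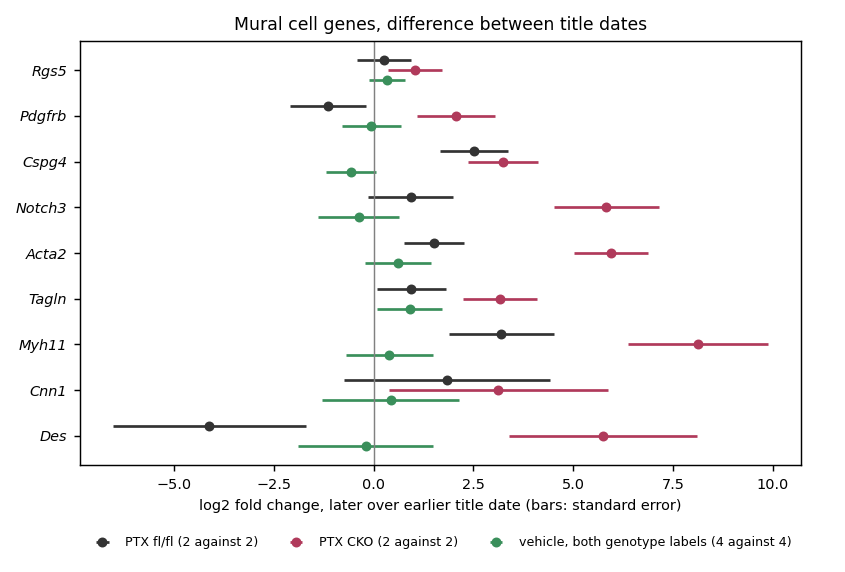
Log2 fold change of the later over the earlier title date (horizontal axis) for each mural gene (vertical axis) in PTX fl/fl, in PTX CKO and in vehicle, with standard errors. The CKO points reach 5.95 for Acta2 and 8.13 for Myh11, the vehicle points stay between -0.56 and 0.90, and the fl/fl point of Des rests on 1 read on the later date.

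The 9 genes did not vary as one block. After the mean of each group was removed, Acta2 and Myh11 correlated at Pearson r = 0.98 over the 16 libraries (Spearman rho = 0.97), and Myh11 was the gene most like Acta2 among 14199. Tagln and Cspg4 belonged with them: the 6 pairs among these 4 genes had r of 0.79 to 0.98. When the mean of each group and date was removed instead, so that only the difference between the 2 libraries of a pair remained, the same 6 pairs still gave r of 0.79 to 0.98 and Spearman rho of 0.69 to 0.94. Cnn1 correlated with these 4 at r of 0.49 to 0.68 on that scale.

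Des and Notch3 were alike within the pairs (r = 0.72, rho = 0.86), and Rgs5 was less closely so with Des (r = 0.64, rho = 0.41) and Notch3 (r = 0.48, rho = 0.44). With Cnn1 these 3 genes had negative values, which differed between the measures: r was -0.64 for Rgs5, -0.54 for Des and -0.58 for Notch3, and rho was -0.80, -0.19 and -0.43. They were not cleanly apart from the contractile genes, since Des had rho of 0.62 with Acta2 and 0.44 with Myh11 within pairs, where r was 0.24 and 0.07. Notch3 and Acta2 had r = 0.80 with group means removed (0.59 without the 2 farthest libraries) and r = 0.03, rho = 0.33 within pairs. Pdgfrb had r of at most 0.39 to any other member with group means removed, and within pairs r ran from -0.57 with Tagln to 0.30 with Notch3. These values describe 16 libraries that share groups, dates and sequencing depth, and carry no test.

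The genes nearest to each member came from all expressed genes. For Acta2 they were Myh11, Tpm2 (tropomyosin 2; r = 0.96) and Rrad (0.95). For Myh11 they were Acta2, Myl9 (myosin regulatory light chain of smooth muscle; 0.96) and Tpm2 (0.95), and for Tagln they were Myl9 (0.91), Tpm2 (0.90) and Mfge8 (0.89). For Cspg4 they were Ptrf (0.93), Igfbp7 (0.93) and Pign (0.92). The other members had other neighbours. Rgs5 lay nearest Pla2g2d (0.92), St3gal3 (0.91) and Dnajc13 (0.91), and Pdgfrb nearest Phxr4 (0.92), Huwe1 (0.88) and Ezh1 (0.86). Notch3 lay nearest Mier1 (0.93), Fcgr2b (0.88) and Hmgn5 (0.87). Des lay nearest Stk11ip (0.86), E130215H24Rik (0.86) and Ccdc37 (0.84), and Cnn1 nearest Tm9sf1 (0.91), Sema5b (0.88) and Cul1 (0.85).

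The promoters of 6 members (Rgs5, Acta2, Cspg4, Des, Notch3 and Cnn1) were searched for the CArG box, because contractile genes varied together; those of Pdgfrb, Tagln and Myh11 were not analysed here. The windows were the RefSeq sequences of GRCm38.p6, 250 bases before to 50 after the start of each gene. The motif was CCNNNNNNGG, which reads the same on both strands, with A or T at all 6 middle positions in the exact form. None of the 6 held an exact box, against 1.57% of 27025 promoters, so none among 6 is close to what that share gives. With at most 1 C or G among the middle 6, a form chosen after the exact search, Acta2 held 2 boxes and the other 5 members none, against 10.0% of all promoters with at least 1 and 0.836% with at least 2. Among 16 promoters of other contractile genes, only that of Myl9 held any, also 2. Its boxes and those of Acta2 are shown because they were the only matches in these 6 and 16 promoters, each with its flanks in lower case and the box in capitals, 5′ to 3′ on the strand of the gene.
Acta2 upstream box, chr19:34255438-34255467, minus strand, starting 84 bases before the gene start: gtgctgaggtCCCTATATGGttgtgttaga
Acta2 downstream box, chr19:34255388-34255417, minus strand, 34 bases before the start: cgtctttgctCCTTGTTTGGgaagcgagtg
Myl9 upstream box, chr2:156775293-156775322, plus strand, 161 bases before the start: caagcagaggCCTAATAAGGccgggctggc
Myl9 downstream box, chr2:156775355-156775384, plus strand, 99 bases before the start: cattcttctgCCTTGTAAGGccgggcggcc
The upstream box of Myl9 is an exact one, and the other 3 have 1 C or G in the middle. A match describes the letters and is no proof of binding. A missing match says nothing of boxes outside these windows, which were not searched.

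Genes that act with the members mostly had fold changes of the same sign after PTX, and few were called. Over all genes in fl/fl, 4.96% were called in either direction, 1.76% were called lower and 50.2% had a negative fold change. In CKO these shares were 2.58%, 0.359% and 49.4%. They are the background for the PTX counts of all the lists below. Of 16 other pericyte genes tested (18 listed), 1 was called lower in fl/fl, Art3, an ADP-ribosyltransferase gene (log2 fold change -2.48 ± 0.39, edgeR adjusted p = 0.00582), and none in CKO. The list medians were -2.44 and -2.30, and without the earlier PTX date -2.08 and -1.55. Of 17 other contractile genes tested (18 listed), 1 was called lower in each genotype. In fl/fl it was Csrp1, a LIM protein of smooth muscle (-2.18 ± 0.46, adjusted p = 0.0138), and in CKO it was smoothelin, Smtn (-2.49 ± 0.63, adjusted p = 0.0459). Csrp1 was at -1.56 in CKO and Smtn at -1.50 in fl/fl, neither of them called. No gene of these or the following lists was called in the interaction test.

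The regulators of the contractile genes, Srf, Myocd and the cofactors Mkl1 and Mkl2, gave 0 calls of 4 in both genotypes. Mkl1 was at 0.18 ± 0.63 and -1.18 ± 0.64, and Mkl2 at 0.39 ± 0.47 and 0.77 ± 0.47, in fl/fl and CKO. Srf was at -1.25 ± 0.82 and 0.465 ± 0.81, and Myocd at -1.87 ± 1.95 and -0.78 ± 1.90. Of 11 actin, calponin, transgelin and myosin paralogs tested (13 listed), none was called in fl/fl and Tagln2, a paralog of Tagln, rose in CKO (1.59 ± 0.40, edgeR adjusted p = 0.0437). Tagln2 thus stood opposite in sign to Tagln, whose fold changes were -2.32 and -1.48.

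For the ligands and receptors, 0 of 4 PDGF genes tested (5 listed) were called in either genotype. The most abundant, the ligands Pdgfa and Pdgfc, had log2 fold changes of 1.35 ± 1.03 and -3.37 ± 1.28 in fl/fl. Pdgfb, which encodes PDGF-B, had a mean of only 2.07 CPM. It was at -4.04 ± 2.415 in fl/fl and 6.47 ± 2.75 in CKO. Of 15 Notch genes tested (17 listed), 1 was called lower in fl/fl, Hey2, a Notch target gene (-1.95 ± 0.42, adjusted p = 0.016), and none in CKO. Of 11 genes of vessel signals to mural cells tested (12 listed), none was called in either genotype. Acvrl1, an endothelial TGF-beta family receptor, was at -0.20 ± 1.24 and -1.62 ± 1.27, and Tgfbr2 at -2.18 ± 0.66 and -1.10 ± 0.64.

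Pericytes share a basement membrane with the endothelium. Of its 8 genes, 3 were called lower in fl/fl, against 1.76% of all genes. That was more than in any of the other lists related to mural cells. Markers of Schwann cells, fibroblasts and satellite glia had more such calls, at 8 of 12, 6 of 11 and 4 of 12. The 3 genes were the collagen gene Col4a1 (-2.13 ± 0.48, edgeR adjusted p = 0.0185) and the nidogens Nid1 (-2.08 ± 0.47, adjusted p = 0.0183) and Nid2 (-2.54 ± 0.66, adjusted p = 0.0363). All 8 were negative in both genotypes, with medians of -1.68 and -1.14 (-1.20 and -1.05 without the earlier PTX date), and none was called in CKO. Without the earlier PTX date, none of the calls in these lists passed: adjusted p was 0.137 for Art3, 0.254 for Csrp1, 0.407 for Smtn, 0.571 for Tagln2, 0.281 for Hey2 and 0.226 to 0.354 for the 3 basement membrane genes. Their fold changes then lay between 0.91 for Tagln2 and -2.55 for Nid2, with the signs kept.

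Between the later and the earlier PTX date, 7.4% of all genes were called by edgeR in either direction. On the later date, 3 of 17 other contractile genes rose: Flna, an actin crosslinker (3.60 ± 0.38, edgeR adjusted p = 0.000313), Myl9 (2.83 ± 0.62, adjusted p = 0.00905) and Tpm2 (2.98 ± 0.81, adjusted p = 0.0344). Flna is also widely expressed outside muscle. Steap4 was the 1 of 16 other pericyte genes called (3.05 ± 0.76, adjusted p = 0.0221), which is near the share of all genes. Among the paralogs Actb, Cnn2 and Myh9 rose (1.43 ± 0.31, 3.86 ± 0.52 and 1.94 ± 0.32) and Tagln2 fell (-1.09 ± 0.29). The receptors Notch2 (2.96 ± 0.44), Tgfbr2 (2.08 ± 0.43) and Acvrl1 (5.06 ± 0.82) rose as well, with the Notch coactivator Maml1 (2.49 ± 0.64). The PDGF genes, the serum response factor group and the basement membrane gave 0 calls of 4, 4 and 8.

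Markers of other cell types differed between PTX and vehicle in the same comparisons, read against 1.76% of all genes called lower in fl/fl and 0.359% in CKO. In fl/fl, 0 of 14 endothelial genes, 6 of 11 fibroblast genes, 8 of 12 genes of myelinating Schwann cells, 4 of 12 of satellite glia, 2 of 10 of macrophages and 0 of 9 of neutrophils were called lower, and 10 of 12 sensory neuron genes were called higher. In CKO the counts were 0, 3, 6, 1, 0 and 0 lower and 8 higher. Endothelial genes, whose cells share vessels with mural cells, summed to 55.5 to 91.3 CPM in PTX fl/fl, 50.3 to 158 CPM in PTX CKO, 134 to 273 CPM in vehicle fl/fl and 77.5 to 281 CPM in vehicle CKO. Of these 14 genes, 13 in fl/fl and 12 in CKO had negative fold changes. Without the earlier PTX date, the marker calls that were left were 2 Schwann cell genes in fl/fl. Some list medians in fl/fl stayed near their values: 1.95 against 2.40 for sensory neurons, -3.38 against -3.66 for fibroblasts and -2.18 against -2.37 for Schwann cells. Others moved further. Neutrophils were at -1.12 against -1.95 in fl/fl and -0.68 against -1.66 in CKO. Macrophages were at -2.24 against -3.06 in fl/fl and -1.455 against -2.32 in CKO. In CKO, endothelial genes were at -0.74 against -1.69, while satellite glia went the other way, at -0.775 against -0.435.

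Sensory neuron genes, the markers of the cell type named in the labels, summed to 12919 to 24724 CPM in PTX fl/fl and 10078 to 25248 CPM in PTX CKO. In vehicle they reached only 1372 to 6842 CPM in fl/fl and 1471 to 4036 CPM in CKO, so the treatments did not overlap. Fibroblast genes ran the other way, at 169 to 547, 173 to 1200, 3077 to 8964 and 1111 to 5741 CPM in the same order of groups. In vehicle, the 9 neutrophil genes took 8.1% to 17.5% of the gene counts in fl/fl and 7.2% to 18.4% in CKO. The 12 sensory neuron genes took 0.118% to 0.744% and 0.147% to 0.375%, so the counts were not of neuron RNA alone. The red cell genes Hba-a1 and Hbb-b1 were at 0 in all 16 libraries, while Alas2, also on that list, had a mean of 2.41 CPM. Alignments that were not unique had been left out of the counts, so these 0 values do not show that red cells were absent. The part of these shifts in the mural differences was not tested.

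**Figure D4:**
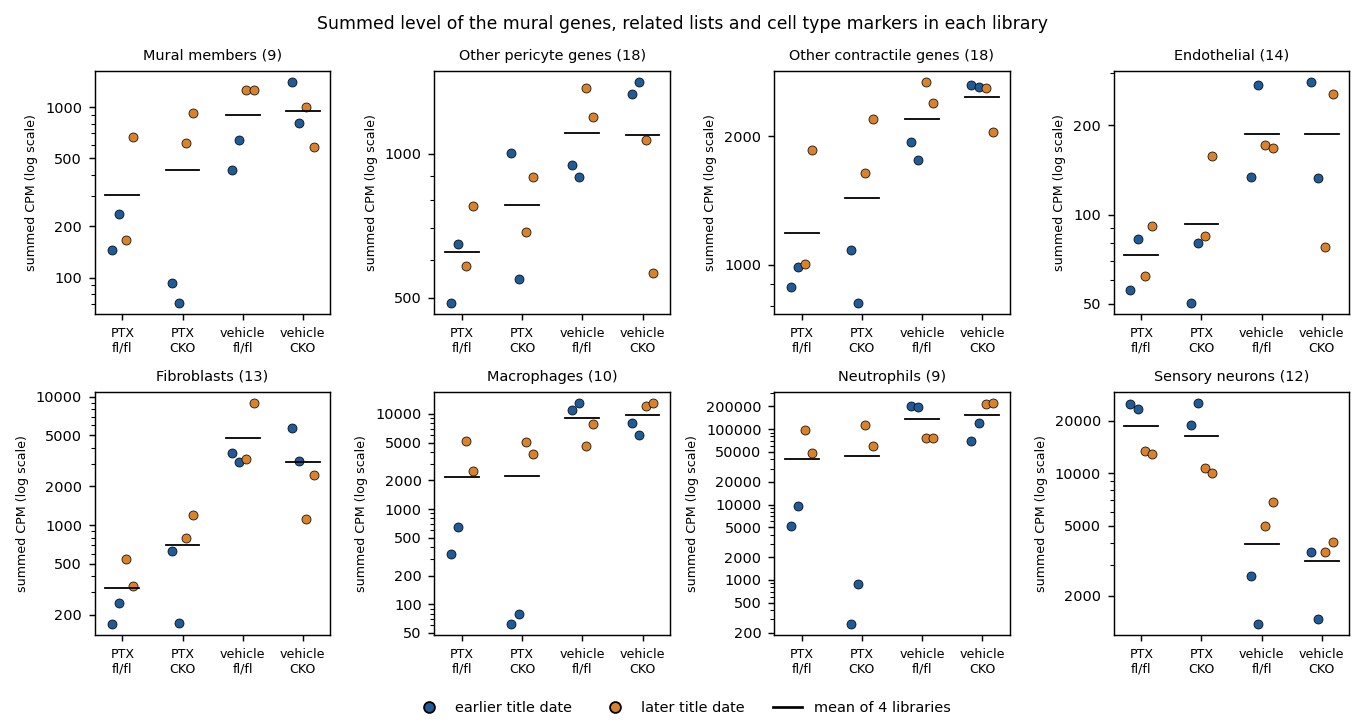
Summed CPM on a log scale (vertical axes, each with its own range) of the 9 mural genes, 2 related lists and 5 lists of cell type markers in each library by group, coloured by title date, with a line at the mean of 4. Macrophage and neutrophil sums are lowest in the 4 blue PTX points, the mural sum there is 70.8 to 236 CPM with 1 orange PTX point at 165 CPM among them, and the sensory neuron sum is highest there, at 18952 to 25248 CPM.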

How the data were processed

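For each of 16 libraries the authors deposited 1 table of raw counts by gene symbol, with no scaling. Base calls were converted with bcl2fastq, reads aligned to mm9 with TopHat2 and counted with HTSeq, per the submitters' processing notes. Versions, annotation and strand setting are not given in the sources used here. The 5 HTSeq summary lines, among them 13.73% to 25.39% of alignments on no feature and 39.54% to 44.18% not unique, were left out. Replicates were compared in 24 pairs, none with equal counts, and all differed beyond sampling noise (chi-square at least 19.5 per degree of freedom).

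Counts were filtered with filterByExpr, scaled with TMM factors and tested in edgeR 4.0.16 under R 4.3.3 (quasi-likelihood F test, robust, 1 coefficient per group over all 16 libraries, 12 residual degrees of freedom). All p-values are two-sided; Benjamini-Hochberg adjustment covered the 14200 genes kept, and the threshold was 0.05. The date comparison added 1 date term per treatment. Each standard error is the fold change divided by the square root of its F value. The fits were tested on simulated data.

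The members and the lists were chosen with earlier results of these data known. All 9 members were named. For each list up to 4 genes with the smallest adjusted p in a PTX comparison were named, or the 2 most abundant. Srf, Myocd and Pdgfb were added after their values were seen. List genes called between dates were named after their values were seen. For each member the 3 nearest genes by Pearson r of log2 CPM (prior count 2) were taken. Of 195 list entries 194 matched, 4 by an older symbol.

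Same-numbered libraries deviated together only between the genotype labels under PTX (r of 0.37, 0.40, 0.39 and 0.22). A replicate block changed no count of called members. Alternatives were other scalings and filters, date terms, each date alone, the compared groups alone, DESeq2 1.42.0, limma-voom 3.58.1 and leaving out each library. The fits without the earlier PTX date (members and lists), with 8 pairs of libraries, and the correlations within pairs were chosen after seeing the data. Limits at 0 counts rest on 3 counts and, like all intervals on counts, cover counting error only.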

Additional observations from a re-analysis of the deposited data

Results flagged for a closer look

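In 4 of 36 sets of 4 libraries (9 genes in 4 groups), 1 library stood far from the other 3. Chance alone would mark about 1 in 20 if the values were normally distributed. Whether CPM are so distributed was not tested, so the rate by chance is not known here. Pdgfrb was at 82.8 CPM in PTX CKO replicate 4, Myh11 at 179 CPM in PTX fl/fl replicate 4 and Cnn1 at 4.23 CPM in PTX CKO replicate 3, each well above the rest of its group. Cspg4 was at 28.1 CPM in vehicle fl/fl replicate 2, below the rest. The 3 high values are all in PTX libraries of the later title date.

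For 2 genes, the title dates within PTX differed in opposite directions under the 2 genotype labels, with no overlap between dates in either. Each date held only 2 libraries per label, and the share of all genes with this pattern is not given here, so the flag is weak. Pdgfrb was lower on the later date in fl/fl (14.7 and 11.2 CPM against 39.4 and 17.6 CPM) and higher in CKO (18.7 and 82.8 CPM against 10.0 and 14.1 CPM). The difference between the labels was 3.21 ± 1.35 on the log2 scale, with an edgeR adjusted p of 1. Des was at 0.102 and 0 CPM against 0.332 and 1.85 CPM in fl/fl, and at 8.87 and 28.3 CPM against 0 and 0.664 CPM in CKO. Its fitted difference of 9.86 (edgeR adjusted p = 0.685) depends on the prior count, since the later fl/fl pair held 1 read.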

How the results depend on the processing

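Counts of called members depended on the tool and the dates. The edgeR fit called 0 of 9 in fl/fl and 0 in CKO after PTX. Title date terms gave 1 and 2, DESeq2 3 and 1, limma-voom 7 and 6, the earlier dates alone 1 and 5, and the compared groups alone 1 in fl/fl. Leaving out a library gave 0 to 1 in fl/fl and 0 in CKO. Between PTX dates, the 3 calls became 1 without a filter, 5 by DESeq2, 1 by limma-voom, 0 with PTX libraries alone (where Des was filtered out) and 0 to 4 on leaving out a library. Comparisons of genotype labels, the interaction and the vehicle dates gave 0 under every alternative run. The cause was not tested.

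Some values near 0 changed sign. Pdgfrb in CKO became -0.019 (RLE scaling and DESeq2), -0.018 (upper-quartile scaling), -0.088 (date terms), -0.863 (limma-voom) and -1.218 (earlier dates), and -1.089 to 0.366 on leaving out a library. In fl/fl, Cnn1 became 0.062 (later dates) and 0.516 (without the earlier PTX date), and -1.837 to 0.344 on leaving out a library, and Myh11 became 0.545 (without the earlier PTX date) and -2.903 to 0.206. With the later dates alone in CKO, Acta2 was 0.198, Des 0.304 and Notch3 0.581. Between PTX dates, limma-voom gave -0.405 for Pdgfrb and -1.114 for Cnn1, and leaving out a library gave -0.395 to 1.054 for Pdgfrb and -1.658 to 3.985 for Des. With a replicate block, Cnn1 in fl/fl became 0.029 and Pdgfrb in CKO -0.168; the block changed no other member's direction and no call. Same-numbered libraries of PTX and vehicle shared only a number (r of -0.18 to 0.08).

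Over all genes, the 704 calls in fl/fl and 366 in CKO became 361 and 126 with the block, 1500 and 1798 with date terms, 1517 and 1331 by DESeq2, 5283 and 2686 by limma-voom, 2309 and 1820 with the earlier dates, 4 and 0 with the later dates, and 159 in CKO with the compared groups alone. Leaving out a library gave 177 (without PTX fl/fl replicate 1) to 845 in fl/fl, with 206, 263, 307 and 449 without PTX replicate 2 and vehicle replicates 1, 2 and 3. In CKO it gave 30 (without PTX CKO replicate 2) to 549, with 68 without PTX replicate 1 and 209, 36 and 97 without vehicle replicates 1, 2 and 3. The shares of all genes called rest on these counts. The 1051 calls between PTX dates became 1781 by DESeq2 and 3076 by limma-voom. DESeq2 raised 3 calls to 83 between genotype labels under vehicle, 1 to 50 in the interaction and 7 to 307 between vehicle dates. Limma-voom moved the median of all genes to 0.24 and 0.29 in the PTX comparisons. Of the 27 nearest genes, 15 were shared when group means were kept. Depth limits Des, Cnn1 and, in PTX CKO, Myh11 and Notch3, which rest on few reads in several libraries.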
